A study of Oryza sativa Japonica Group with 8 samples.

Results

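The 10 genes described here make, cleave and move sucrose in rice. They were taken by identifier from a table of 55801 genes, by a rule on their function. The rule uses no measured value, but the genes were chosen with earlier results of these data known. They comprise the sucrose phosphate synthase gene SPS1, the sucrose synthase genes SUS1, SUS2 and SUS3, the sucrose transporter genes SUT1 and SUT2, and the sugar exporter genes SWEET11, SWEET13, SWEET14 and SWEET16. RNA was sequenced from leaves of seedlings of the Japonica cultivar Nipponbare, with 2 libraries from seedlings given carbon dots, nanoparticles of carbon, at 0.56 mg/ml (CD1 and CD2) and 2 from control seedlings without them (CK1 and CK2). Seeds of both groups were sown in 1/2 MS, a mineral salt medium, while the treatment labels speak of hydroponics. Seedling age is 2 weeks in the labels, but the treatment protocol lets the seeds grow for 3 weeks. Another 4 samples of the series, made for bisulfite sequencing, were not analysed here. The labels do not say whether the replicates came from separate plants, so the p-values rest on a spread between libraries that may be technical.

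Sucrose is the main form in which a leaf exports the carbon it fixes. In the cytosol, sucrose phosphate synthase joins UDP-glucose and fructose 6-phosphate, and a phosphatase then releases sucrose. SWEET proteins let sugar move down its gradient out of cells next to the veins, SUT proteins carry sucrose across membranes together with protons, and sucrose synthases and invertases cleave it where it is used. In rice, SWEET11, SWEET13 and SWEET14 are also known as genes that leaf blight bacteria switch on during infection.

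The libraries held 49281927 to 80317398 counted reads. The genes taken as leaf markers summed to 4606 to 15813 TPM (a level per gene length, scaled to the same total in each library). Of the markers of other tissues, the 3 root genes summed to 30.0 to 42.7 TPM (LSI1 at 21.2 to 24.3 TPM and NRAMP5 at 8.07 to 18.4 TPM, with LSI2 at 0 counts in every library), the 3 secondary wall genes to 344 to 695 TPM, the 2 endosperm genes to 1.84 to 2.64 TPM and the 2 shoot meristem genes to 0.149 to 2.20 TPM. A first principal component with 51.9% of the variance set CD1 apart (-58.6, the others 4.78 to 38.7), and a second with 29.7% set CD2 apart (-46.7, the others 11.1 to 21.2).

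All 10 genes had counts in every library and passed the filter on low counts, but their levels spanned several orders of magnitude. SUS1 was the most abundant, with 698 to 1182 TPM over the 4 libraries and place 68 of 55801 genes by mean TPM. It stood above every other member in all 4 libraries. SWEET13 (mean 249 ± 37.3 TPM, SD over the 4 libraries), SUS2 (212 ± 60.3), SUT1 (200.0 ± 30.8) and SWEET14 (197 ± 56.0) followed, and the ranges of neighbours in this order overlapped. Below them came SUT2 (72.2 ± 5.90 TPM), SPS1 (64.7 ± 19.3), SWEET11 (38.7 ± 13.8) and SWEET16 (23.5 ± 9.69), again with overlapping neighbours. SWEET14 and SUT2 did not overlap, nor did SWEET16 and SUS3. SUS3 stood at 0.0126 to 0.212 TPM, place 27541. SUT2 varied least between libraries. No member overlaps another gene of the count table, on either strand. Within the SUS and SWEET families, reads that fit several similar genes may be missing or misplaced.

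**Figure D1:**
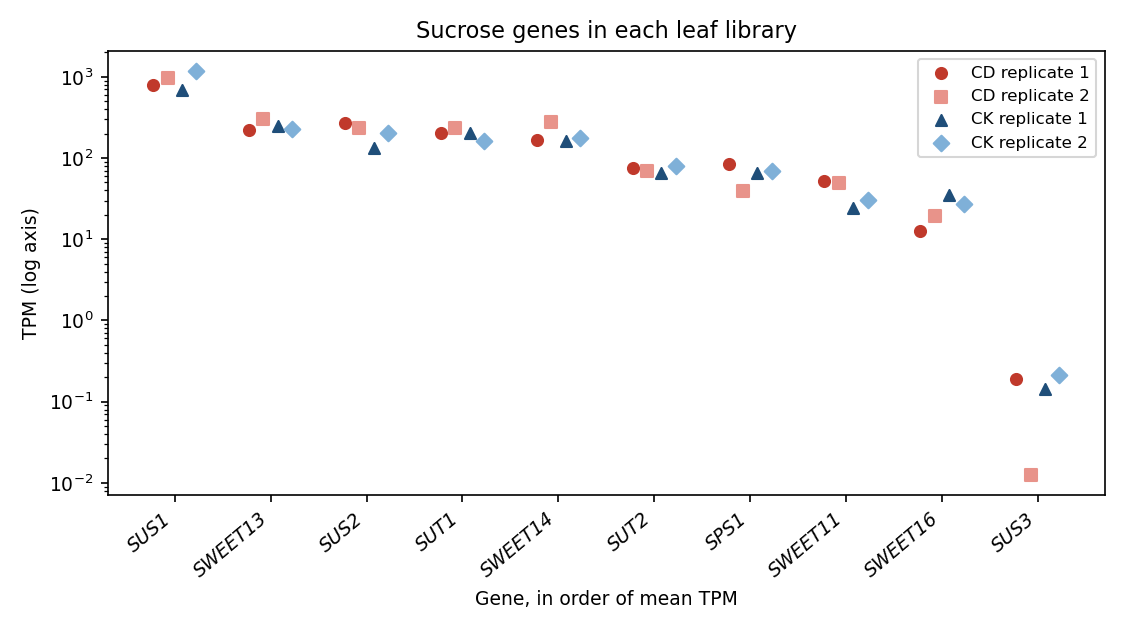
Level of each of the 10 genes in TPM (log axis) in the 2 carbon dot (CD) and 2 control (CK) libraries, 1 point per library, in order of mean TPM. SUS1 lies highest, from 698 to 1182 TPM, and SUS3 lies lowest with 1 count in CD2. The CD points of SWEET11, SUS2 and, barely, SUT1 lie above both CK points, and those of SWEET16 lie below both.

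Comparing CD with CK asks whether transcripts of sucrose handling differ in leaves of seedlings grown with carbon dots. SWEET11 was higher and SWEET16 lower in both CD libraries than in both CK libraries, SUS2 was higher by a smaller margin, and the other 7 genes overlapped between the groups after TMM scaling, which evens out library composition. No member passed the test. edgeR's quasi-likelihood test called 0 of the 10 members at an adjusted p of 0.05, as it called 0 of all 26271 genes tested (0%). At an unadjusted p under 0.05 by edgeR stood 2 members, SWEET11 (higher) and SWEET16 (lower), beside 8.7% of all genes tested. For all genes this was 3.33% higher (876 genes) and 5.37% lower (1410 genes), a split that turned to 1371 higher and 992 lower with total count scaling, 1347 and 972 with log2(TPM + 1) and 1388 and 976 with log2(TPM + 0.1). DESeq2 called 0 members and 1.95% of all genes, and limma-voom called 0 of either.

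The 3 members whose CD libraries lay on one side of both CK libraries stand beside 38.4% of all genes tested. The difference between group means was larger than the gap between replicates in both groups for 2 members, SWEET11 and SWEET16, and for 26.1% of all genes (on log2(CPM + 0.5), a measure added after the data were seen). Of the 10 log2 fold changes (CD minus CK), 5 were above 0 (51% of all genes tested) and 5 below, with a median of -0.06 beside 0.0068 for all genes tested. The members' median turned to 0.045 with total count scaling, which moved the median of all genes to 0.11. With a library left out, the members' median ran from -0.086 (without CK1) to 0.092 (without CD1). Without CK1, SWEET11 was at 0.62 and SWEET16 at -0.86. Such a fit assumes that the lone library of a group varies as the other group does. In bulk leaf RNA, fewer cells of a type and less RNA per cell cannot be told apart.

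**Figure D2:**
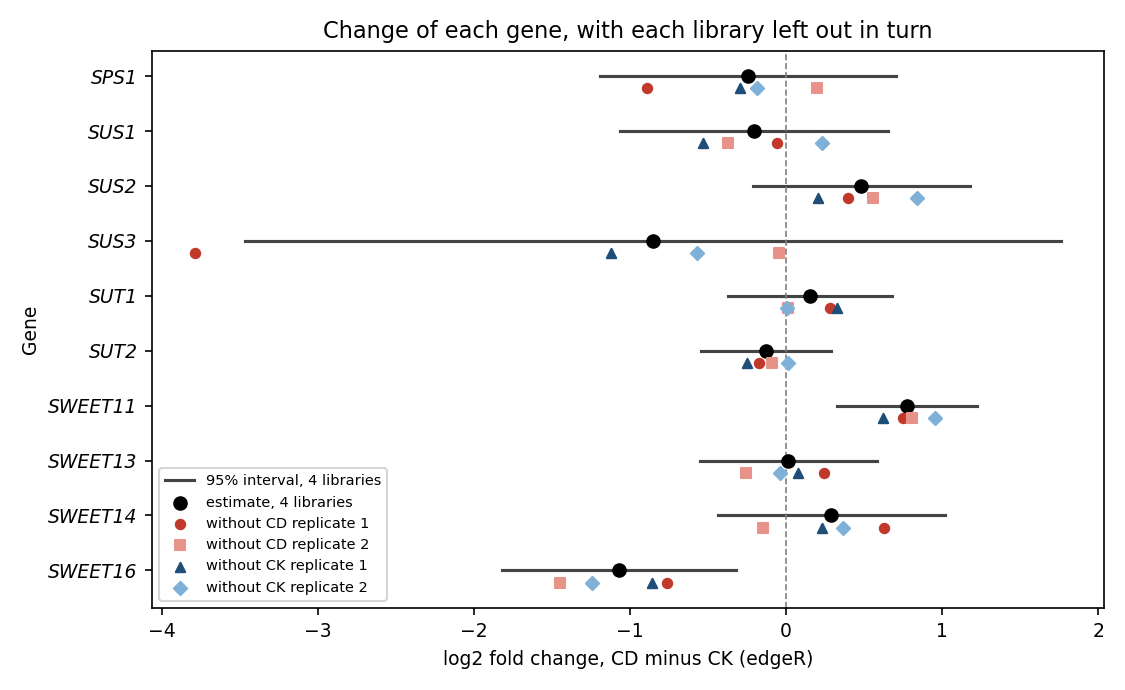
Log2 fold change of each gene, CD minus CK, by edgeR: the black point is the estimate from 4 libraries (2 per group), the line its 95% interval, and the coloured points the estimates with 1 library left out. Only the intervals of SWEET11 (0.33 to 1.23) and SWEET16 (-1.82 to -0.32), which are not adjusted for the number of genes, lie on one side of 0.

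Sucrose synthesis was represented by SPS1 (LOC_Os01g69030, chromosome 1, 40101404 to 40107186, minus strand), named so in the gene list. It encodes sucrose phosphate synthase, a controlled step of leaf sucrose synthesis. Its level was 85.2 TPM in CD1, 38.9 TPM in CD2, 64.9 TPM in CK1 and 69.9 TPM in CK2. The CD libraries held both the highest and the lowest value and differed 2.19-fold, while the CK libraries differed 1.08-fold. The log2 fold change was -0.25 ± 0.37 (SE), with a 95% interval of -1.19 to 0.70 and an edgeR adjusted p of 0.933. It was at -0.89 without CD1 and turned to 0.20 without CD2.

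The further synthesis list had 6 genes with a matched symbol, all tested. edgeR called 0 of them at an adjusted p of 0.05 and DESeq2 0, with 4 below 0, 2 above and a median log2 fold change of -0.11. After TMM scaling, both CD values were under both CK values in 3 of the 6 and in 20.7% of all genes tested. In TPM not all of these 3 kept the groups apart. The other sucrose phosphate synthase genes did not follow the spread of SPS1. SPS6 had 76.4 and 68.9 TPM in the CK libraries and 80.7 and 82.7 TPM in the CD libraries, and SPS8 had 86.2 and 84.0 TPM against 85.5 and 94.6 TPM. Their log2 fold changes were 0.05 ± 0.15 and -0.04 ± 0.16. That of SPS6 turned to -0.019 without CK2, and that of SPS8 to 0.066 with total count scaling, 0.079 and 0.080 with TPM and 0.052 without CD1.

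cFBP1 (LOC_Os01g64660), the cytosolic fructose bisphosphatase that feeds carbon into sucrose synthesis, was at 153 and 112 TPM in the CD libraries and 190 and 260 TPM in the CK libraries. Both CD values lay below both CK values, as for 20.7% of all genes tested. Its log2 fold change was -0.88 ± 0.25, with adjusted p = 0.474 by edgeR and 0.103 by DESeq2. It was at -0.63 without CK2 and -1.10 without CD1. SPP2, a sucrose phosphate phosphatase gene chosen after its values were seen, had 65.2 and 64.5 TPM against 77.6 and 80.5 TPM, a log2 fold change of -0.41 ± 0.14 (adjusted p = 0.522 by edgeR and 0.534 by DESeq2). These 2 of the 6 were at an unadjusted p under 0.05 by edgeR, beside 8.7% of all genes tested. SPP2 was not with DESeq2, total count scaling, TPM, the replicate block or any library left out, and cFBP1 was not without CK2. The summed level of the 5 genes listed as leaf markers moved the same way, with 4673 and 4606 TPM in the CD libraries and 10689 and 15813 TPM in the CK libraries. Its largest part in every library was LOC_Os12g17600, listed as a Rubisco small subunit gene. That gene had 3312 and 1956 TPM in the CD libraries and 5113 and 12143 TPM in the CK libraries. For 3 of the 5 both CD libraries stood under both CK libraries. The other 2 overlapped, among them CAB2R (349 and 1259 TPM against 2470 and 860 TPM), a chlorophyll a/b binding protein gene and the only one of the 5 with a usable symbol match. The shoot meristem genes were lower too, OSH1 with 0 and 0 counts in CD1 and CD2 and 117 and 42 in CK1 and CK2, and OSH15 with 10 and 14 against 89 and 54. The part of these markers in the values of cFBP1, SPP2 and SWEET16 was not tested.

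Sucrose cleavage by sucrose synthase returns UDP-glucose, the sugar donor for starch and cell walls. SUS1 (LOC_Os03g28330, chromosome 3, 16301277 to 16307632, minus strand) had 802 and 968 TPM in CD1 and CD2 and 698 and 1182 TPM in CK1 and CK2. Both CD values lay between the CK values. Its log2 fold change was -0.21 ± 0.34 (95% interval -1.06 to 0.65, edgeR adjusted p = 0.939). It was at -0.53 without CK1 and turned to 0.23 without CK2.

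SUS2 (LOC_Os06g09450, chromosome 6, 4796286 to 4804246, minus strand) had 273 and 237 TPM in the CD libraries and 131 and 205 TPM in the CK libraries. Both CD values lay above both CK values, as for 17.7% of all genes tested. The CK libraries differed 1.56-fold, more than the ratio of the group means (1.52). Its estimated log2 fold change was 0.48 ± 0.27 (95% interval -0.21 to 1.18, edgeR adjusted p = 0.705). It was at 0.20 without CK1 and 0.84 without CK2, and kept its sign in all 14 alternatives. With groups that did not overlap, leaving out a library could hardly turn the sign.

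SUS3 (LOC_Os07g42490, chromosome 7, 25429639 to 25435182, plus strand), the isoform known from the rice grain, was barely counted in these leaves. It had 23 counts in CD1, 1 in CD2, 19 in CK1 and 21 in CK2. CD2 stood apart from the other 3 libraries. Exact 95% Poisson intervals, which cover counting error only, were 14.6 to 34.5 counts for CD1 and 0.0253 to 5.57 for CD2, so the CD replicates differed beyond counting error. The log2 fold change was -0.85 ± 1.02 (95% interval -3.46 to 1.76, edgeR adjusted p = 0.911), at -3.79 without CD1 and -0.045 without CD2.

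Within the sum of SUS1, SUS2 and SUS3 in TPM, a share that library scaling cannot move, SUS1 held 74.6% and 80.3% in the CD libraries and 84.2% and 85.2% in the CK libraries. SUS2 held 25.4% and 19.7% against 15.8% and 14.7%, and SUS3 at most 0.0176%. The sum itself overlapped, at 1075 and 1205 TPM against 830 and 1387 TPM. The ratio of SUS1 to SUS2 was 2.94 and 4.08 in the CD libraries and 5.32 and 5.78 in the CK libraries, so the groups did not overlap. The CD mean was 3.51 ± 0.81 and the CK mean 5.55 ± 0.33 (SD, n = 2). A two-sided exact permutation test gave p = 0.333, the smallest that 2 libraries against 2 allow. With SUS4 to SUS7 in the sum, SUS2 held 23.9% and 18.6% against 14.9% and 14.1%.

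**Figure D3:**
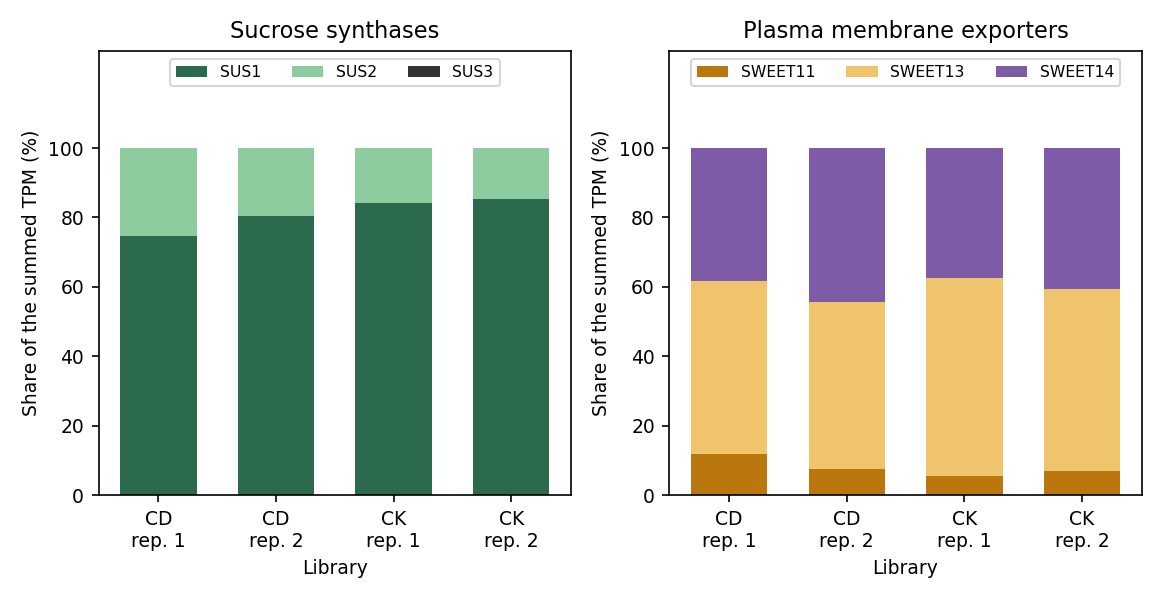
Shares of summed TPM (%) in each of the 4 libraries, within SUS1, SUS2 and SUS3 (left) and within SWEET11, SWEET13 and SWEET14 (right). SUS2 takes 25.4% and 19.7% in the CD libraries against 15.8% and 14.7% in the CK libraries, SWEET11 takes 11.8% and 7.71% against 5.53% and 6.93%, and SUS3 is too rare to be visible.

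Among the further cleavage genes, 10 of the 11 with a matched symbol passed the filter on low counts. edgeR called 0 of them at an adjusted p of 0.05 and DESeq2 0, with 4 above 0, 6 below and a median log2 fold change of -0.05. SUS4, another sucrose synthase gene, had 42.7 and 37.6 TPM in the CD libraries and 29.1 and 28.8 TPM in the CK libraries, a log2 fold change of 0.35 ± 0.14 (edgeR adjusted p = 0.583). Both CD libraries lay above both CK libraries, as for 17.7% of all genes tested. NIN3, a neutral invertase gene, had 71.5 and 91.5 TPM against 71.1 and 71.1 TPM, a log2 fold change of 0.08 ± 0.19 that turned to -0.13 without CD2. CIN5, a cell wall invertase gene chosen after its values were seen, was at an unadjusted p under 0.05 by edgeR, 1 of the 10 beside 8.7% of all genes tested. It was not so with limma-voom, log2(TPM + 1), the replicate block or without CD1, CK1 or CK2. It had counts of 175 and 35 in CD1 and CD2 and of 28 and 23 in CK1 and CK2, which is 2.27 and 0.696 TPM against 0.335 and 0.366 TPM. Its log2 fold change of 1.96 ± 0.66 was at 0.88 without CD1 and 2.55 without CD2 (adjusted p = 0.522 by edgeR, 0.184 by DESeq2).

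For SUT1 and SUT2 the 95% interval of the log2 fold change included no change, which does not show that the groups were level. SUT1 (LOC_Os03g07480, chromosome 3, 3797691 to 3804132, minus strand) encodes a sucrose and proton carrier of the plasma membrane, active along the phloem path. It had 201.2 and 236 TPM in the CD libraries and 201.0 and 161 TPM in the CK libraries. CD1 and CK1 had nearly the same level, and with TMM scaling (260 and 313 CPM against 285 and 229 CPM) the groups overlapped. The log2 fold change was 0.15 ± 0.21 (95% interval -0.37 to 0.68, edgeR adjusted p = 0.923). It was at 0.0087 without CK2, 0.012 without CD2 and 0.33 without CK1.

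SUT2 (LOC_Os12g44380, chromosome 12, 27513939 to 27518251, minus strand), which encodes a carrier that releases sucrose from the vacuole in rice, had 75.1 and 68.9 TPM in the CD libraries and 66.0 and 79.0 TPM in the CK libraries. The CD values lay between the CK values. By edgeR its log2 fold change was -0.13 ± 0.16, and its 95% interval of -0.55 to 0.29 was the narrowest among the 10 members (edgeR adjusted p = 0.915). It was at -0.25 without CK1 and turned to 0.011 without CK2. The ratio of SUT1 to SUT2 overlapped between the groups (2.68 and 3.43 against 3.05 and 2.04).

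The exporter genes differed among themselves. SWEET11 (LOC_Os08g42350, chromosome 8, 26725898 to 26728795, minus strand), a plasma membrane sucrose exporter needed for grain filling, had 52.0 TPM in CD1, 48.7 TPM in CD2, 23.9 TPM in CK1 and 30.2 TPM in CK2. Both CD libraries lay above both CK libraries, as for 17.7% of all genes tested. The group means were 50.3 ± 2.37 and 27.1 ± 4.39 TPM (SD, n = 2), a ratio of 1.86. This gave a log2 fold change of 0.78 ± 0.18 (95% interval 0.33 to 1.23). The adjusted p was 0.46 by edgeR and 0.0617 by DESeq2, and between 0.0617 and 0.9999 across the alternatives. The estimate ran from 0.62 to 0.96 with a library left out and stayed above 0 in all 14 alternatives. As the groups did not overlap, leaving out a library could hardly turn the sign.

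SWEET13 and SWEET14 encode sucrose exporters of the same clade as SWEET11. SWEET13 (LOC_Os12g29220, chromosome 12, 17302073 to 17305326, minus strand) had 219 and 302 TPM in the CD libraries and 248 and 228 TPM in the CK libraries. The CD libraries held the lowest and the highest value. Its log2 fold change was 0.015 ± 0.22 (95% interval -0.56 to 0.58, edgeR adjusted p = 0.995). It turned to -0.26 without CD2, -0.039 without CK2 and -0.0054 with a replicate block, and was at 0.24 without CD1.

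SWEET14 (LOC_Os11g31190, chromosome 11, 18171678 to 18174478, minus strand) had 168 and 280 TPM in the CD libraries and 162 and 177 TPM in the CK libraries. CD2 was high and the other 3 libraries lay close together. Its log2 fold change was 0.29 ± 0.28 (95% interval -0.44 to 1.02, edgeR adjusted p = 0.880), at 0.63 without CD1 and -0.15 without CD2. The 3 secondary wall cellulose synthase genes listed as markers, of which CESA4 and CESA7 have a matched symbol, were also highest in CD2. Their summed level was 344 and 695 TPM in the CD libraries and 550 and 361 TPM in the CK libraries. Their part in the values of SWEET13 and SWEET14 was not tested.

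Within the sum of SWEET11, SWEET13 and SWEET14 in TPM, SWEET11 held 11.8% and 7.71% in the CD libraries and 5.53% and 6.93% in the CK libraries. SWEET13 held 49.8% and 47.9% against 57.2% and 52.4%, so in each library it was the most abundant of the 3. The ratio of SWEET13 to SWEET11 was 4.21 and 6.21 in the CD libraries and 10.3 and 7.56 in the CK libraries. The groups did not overlap, with means of 5.21 ± 1.41 and 8.95 ± 1.96 (SD, n = 2), and the exact permutation test gave p = 0.333, the smallest it can give here. The ratio of SWEET14 to SWEET13 overlapped between the groups (0.769 and 0.927 against 0.653 and 0.776). These were among 5 ratios computed.

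SWEET16 (LOC_Os03g22200, chromosome 3, 12729248 to 12731470, plus strand) belongs to another clade, whose Arabidopsis members sit in the vacuole membrane. It lies 48.6 kb from SUS4. It had 12.5 TPM in CD1, 19.5 TPM in CD2, 35.0 TPM in CK1 and 26.8 TPM in CK2. The CD values were the 2 lowest, and CD1 was the lower of them. The group means were 16.0 ± 4.98 and 30.9 ± 5.83 TPM (SD, n = 2), so the control level was 1.93 times that with carbon dots. This gave a log2 fold change of -1.07 ± 0.29 (95% interval -1.82 to -0.32). The adjusted p was 0.474 by edgeR and 0.0813 by DESeq2, and between 0.0813 and 0.9999 across the alternatives. The estimate ran from -1.45 without CD2 to -0.77 without CD1 and stayed below 0 in all 14 alternatives. Here too the groups did not overlap, so leaving out a library could hardly turn the sign.

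The further transport list held 13 genes with a matched symbol. Of these 9 passed the filter, with 3 above 0, 6 below and a median log2 fold change of -0.19. SWEET5 and SWEET12 had 0 counts in every library, SWEET15 had 0, 0, 1 and 12 counts (CD1 and CD2, then CK1 and CK2), and SUT5 had 4 to 8 counts. These 4 were chosen after their values were seen, as the genes that did not pass the filter. edgeR called 0 of the 9 at an adjusted p of 0.05 and had 0 at an unadjusted p under 0.05, and DESeq2 called 0. SWEET2B, whose Arabidopsis relative SWEET2 acts in the vacuole membrane, had 294 and 359 TPM in the CD libraries and 431 and 394 TPM in the CK libraries. Both CD values lay below both CK values, as for 20.7% of all genes tested. The log2 fold change was -0.46 ± 0.19 (edgeR adjusted p = 0.587). SWEET4, a hexose transporter gene, had 168 and 299 TPM against 280 and 245 TPM, a log2 fold change of -0.28 ± 0.32 that turned to 0.087 without CD1 and was at -0.78 without CD2.

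In the list of hexose use and sugar sensing, all 5 genes with a matched symbol were tested, with 2 above 0, 3 below, a median log2 fold change of -0.04, 0 called by edgeR at an adjusted p of 0.05 or at an unadjusted p under 0.05, and 0 called by DESeq2. The hexokinase genes HXK5 and HXK6, whose products phosphorylate glucose and act as glucose sensors in rice, had log2 fold changes of -0.15 ± 0.15 and -0.28 ± 0.18. HXK6 had 30.1 and 38.0 TPM in the CD libraries and 38.0 and 38.0 TPM in the CK libraries, and was at -0.10 without CD1 and -0.47 without CD2. TPP1, a trehalose phosphate phosphatase gene chosen after its values were seen, had 18.7 and 8.44 TPM against 4.76 and 9.60 TPM. The groups overlapped, and its log2 fold change was 0.80 ± 0.50 (95% interval -0.48 to 2.07, edgeR adjusted p = 0.747), at 0.14 without CD1 and 1.39 without CK2. SNRK1A, a kinase of the sugar starvation response, had 93.5 and 114 TPM against 103 and 93.4 TPM. Its log2 fold change of -0.04 ± 0.18 turned to 0.064 with total count scaling, 0.074 and 0.075 with TPM, 0.11 without CD1 and 0.037 without CK1. Over the 4 further lists, 30 genes were tested, with 11 above 0 (51% of all genes tested were) and 19 below and a median of -0.07. After TMM scaling, both CD values lay above both CK values in 3 of the 30 and in 17.7% of all genes tested. They lay under both CK values in 7 of the 30 and in 20.7% of all genes tested. At an unadjusted p under 0.05 by edgeR, beside 8.7% of all genes, stood 1 higher (CIN5) and 2 lower (cFBP1 and SPP2), and with total count scaling SUS4 (higher) took the place of SPP2.

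**Figure D4:**
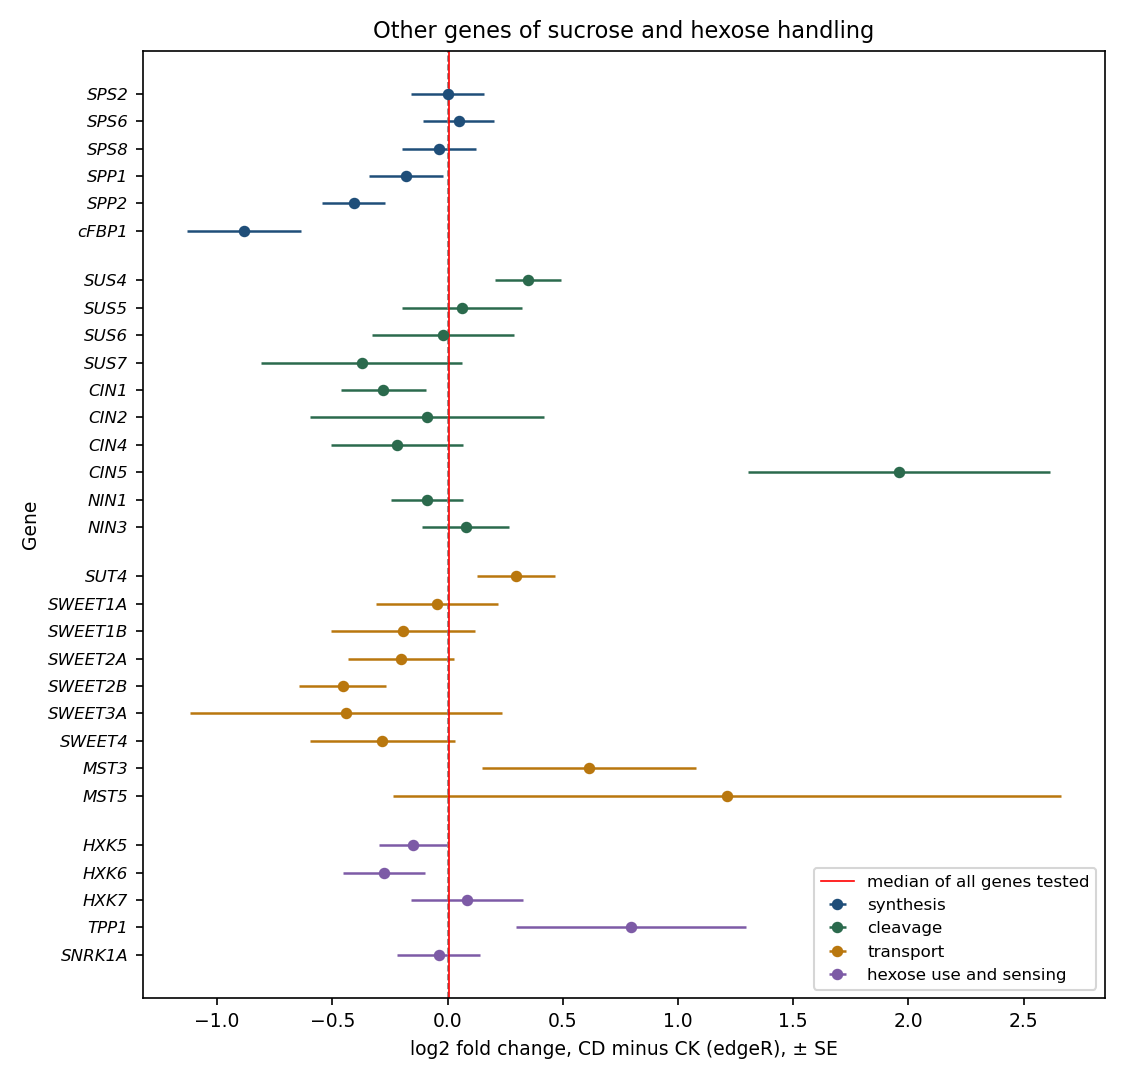
Log2 fold change, CD minus CK, by edgeR with its SE (lines) for the 30 tested genes of the 4 further lists (2 libraries per group); the red line marks the median of all genes tested, 0.0068. Most points lie within 0.5 of 0, cFBP1 lies lowest at -0.88 and CIN5 highest at 1.96 from few counts.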

How the data were processed

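The authors deposited raw read counts per gene, laid out as featureCounts writes them per the file headers, and TPM values. The deposited TPM equal counts over gene length scaled to each library's total, within a relative 1.4e-07. The submitters' processing notes name featureCounts 1.6.4, HISAT2 2.0.5, SAMtools 1.9, fastp 0.21.0 and FastQC 0.11.5 besides bisulfite tools, without saying what each did. For the genome build and the strand setting of the counting, the sources used here give nothing. Coordinates come from the count table.

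The libraries CD1 and CD2 were set against CK1 and CK2 with edgeR 4.0.16 under R 4.3.3: TMM scaling, the filterByExpr filter (26271 genes), a quasi-likelihood F test, and p-values adjusted by Benjamini-Hochberg over all genes tested. The SE is the log2 fold change over the square root of F. The procedure was checked on simulated counts, with changes of known size put in at the spread of these libraries and at a fixed spread. Recovery and size of the changes had to be right only for edgeR at the fixed spread. At the spread of these libraries, only the sign of the largest changes had to be right for most genes. The share of changes recovered there is not reported here, so the check does not say how large a difference can be detected. Alternatives were scaling by RLE or by total count, keeping every gene with a count, requiring 1 CPM in 2 libraries, limma-voom and a trended limma fit (limma 3.58.1) of log2(TPM + 1) and of log2(TPM + 0.1), DESeq2 1.42.0, the replicate number as a replicate block, and leaving out each library. No 2 libraries agreed within sampling noise (chi-square per degree of freedom 85.4 to 239).

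The members and lists were chosen with earlier results of these data known. Symbols were matched to RefSeq (assembly ASM3414082v1, another set of coordinates, used for names only) by symbol, chromosome and span. Of the members 9 matched. The RefSeq record with the symbol SPS1 lies on chromosome 6, so that name rests on the list alone. Of 53 further identifiers 35 matched, and the others are not named and are counted in 1 alternative only. Named were all members and, per list, those of the 4 genes with the highest mean CPM that matched.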

Additional observations from a re-analysis of the deposited data

How the results depend on the processing

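Of the 10 members, SUS2, SUS3, SUT1, SWEET11 and SWEET16 kept their sign in every alternative run (SUS3 had no value with the filter of 1 CPM in 2 libraries). For SUS2, SWEET11 and SWEET16, whose groups did not overlap, leaving out a library could hardly turn the sign. No member passed an adjusted p of 0.05 in any alternative. Over all genes, 29 were called with no filter and 502 by DESeq2, against 0 by edgeR and 0 in every other alternative. At an unadjusted p under 0.05, leaving out a library gave 880 (CK1) to 4106 (CD2) genes, 0 to 5 members and 1 to 8 genes of the further lists. The median of the members was 0.054 and 0.055 with log2(TPM + 1) and log2(TPM + 0.1), and -0.086 (CK1) to 0.092 (CD1) with a library left out.

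With a library left out, log2 fold changes that changed sign ran from -0.89 to 0.20 for SPS1, -0.53 to 0.23 for SUS1, -0.25 to 0.011 for SUT2, -0.26 to 0.24 for SWEET13, -0.15 to 0.63 for SWEET14, -0.019 to 0.13 for SPS6, -0.13 to 0.052 for SPS8, -0.13 to 0.26 for NIN3, -0.78 to 0.087 for SWEET4 and -0.21 to 0.11 for SNRK1A. SPS8 turned to 0.066 and SNRK1A to 0.064 with total count scaling, and to 0.079 and 0.080 and to 0.074 and 0.075 with log2(TPM + 1) and log2(TPM + 0.1). Beyond the libraries left out, the cause was not tested.

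The labels do not say whether same-numbered libraries of the groups were grown or processed together. Same-numbered libraries deviated from their group means with a correlation of -0.20 across genes, which are not independent replicates. From so few libraries this value cannot show whether they shared a batch. With the replicate number as a block, 0 genes were called, 1670 genes, 2 members and 1 gene of the further lists were at an unadjusted p under 0.05, and SWEET13 turned to -0.0054. With the pairing crossed, chosen after seeing the data, these counts were 0, 2922, 2 and 5, and SWEET13 was at -0.0053. With all listed identifiers, also chosen then, 4 further genes were at an unadjusted p under 0.05. With 2 libraries per group, the spread between replicates limited the precision for every member. For SUS3, with at most 23 counts, depth limited it too.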
